A study of Homo sapiens with 20 samples.

Results

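Aminoacyl-tRNA synthetases join each amino acid to its transfer RNA. Their genes were taken as the probe sets with exactly 1 gene symbol in the platform annotation whose symbol was a letter followed by ARS, with or without a closing 1, 2 or 3, or was EPRS1, FARSA or FARSB. This gave 38 probe sets for 36 genes, of 33268 probe sets and 18416 named genes on the array. By the known location of their products, 18 genes code for cytosolic enzymes, 16 for mitochondrial enzymes and 2 (GARS1 and KARS1) for both. No measured value entered this rule, though it was chosen with earlier results of these data known.

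The series used 5 established cell lines of classical Hodgkin lymphoma (cHL), namely L428, KM-H2, SUP-HD1, UHO-1 and L1236, each stably expressing FOXO1(3A)ER. The labels do not spell out this protein, but such constructs are known as a FOXO1 mutant that escapes inactivation by AKT, fused to an oestrogen receptor part that 4-hydroxytamoxifen (4-OHT) activates. Each line was kept for 24 h with 4-OHT or with ethanol, the vehicle, in 2 arrays per arm, which makes 20 Affymetrix Human Gene 1.0 ST arrays of total RNA in 10 groups. Vehicle cells carry the fusion too, and no line without it is among these arrays, so an effect of 4-OHT itself and one of the fusion cannot be told apart. A dose of 200 µM 4-OHT stands in the labels' protocol, which however describes cells of L428 and KM-H2 carrying KLF4ER, so it is quoted only as labelled. The sources used here do not say whether a line was a clone or a pool. By the protocol the work was done 2 times, with no word on whether both arrays of an arm had cultures of their own. P-values therefore measure only the spread between these samples, which may be technical.

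Values are log2 signals, on which 1 unit is a doubling. The arrays of KM-H2 and L428 were normalised apart from those of the other 3 lines, so each line was set against its own vehicle and no levels were compared across these sets. Several markers, though not all, went against the label of 1 line. The 4 arrays labelled L1236 held the T cell markers CD3E, CD3D, CD3G, CD2 and CD5 at 8.39 to 12.3, against 4.58 to 6.43 in UHO-1 and SUP-HD1, which were normalised with them. The B cell factor PAX5 read 6.32 to 6.53 in these arrays and 9.23 to 9.76 in UHO-1 and SUP-HD1, and the Hodgkin cell marker TRAF1 read 5.16 to 5.62 against 9.55 to 10.2. PAX5 is usually low in Hodgkin cells. It read 6.03 to 6.81 in KM-H2 and L428, which were normalised apart, so that range cannot be set against the one in L1236. TNFRSF8, which codes for the Hodgkin cell marker CD30, did not set L1236 apart, at 7.49 to 7.84 against 7.02 to 7.33 in SUP-HD1 and 10.2 to 11.1 in UHO-1. For the Hodgkin cell markers FSCN1, IRF4, CCL17, CCL22, NFKB1 and JUNB only ranges over all 20 arrays were taken. Their lowest values were 7.58, 6.14, 6.62, 5.35, 7.20 and 8.22. L1236 below means the arrays so labelled, and averages are given with and without them.

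As background, the cytosolic and the mitochondrial enzymes are products of nuclear genes, in most cases of separate genes for each amino acid, and the mitochondrial ones serve the ribosomes that make subunits of the respiratory chain. Several cytosolic synthetases form a multi-synthetase complex with scaffold proteins. When amino acids run short, the transcription factor ATF4 induces a set of genes that includes many cytosolic synthetases, amino acid transporters and enzymes of amino acid synthesis, while MYC is a known activator of genes of protein synthesis.

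With 4-OHT, synthetase genes were more often lower than higher on average over the 5 lines. Of the 36 genes, 21 fell, 4 rose and 11 did not pass an adjusted p of 0.05 in limma with Benjamini-Hochberg adjustment over all 15850 genes tested. Over all genes tested, 21.2% fell and 17.4% rose. The median average difference was -0.13 over the synthetases and -0.025 over all genes. Every synthetase passed the filter on low signal, and most lay well above it, with line-averaged signals of 7.03 to 11 for the cytosolic genes and 7.47 to 9.51 for the mitochondrial ones. Bright genes were called more often: among 8921 genes that reached a signal of 8 in at least 2 arrays, 31.9% fell and 26.7% rose, and 22 of the 34 synthetases among them fell and 4 rose. In RNA from whole cultures, fewer cells that make a transcript and less transcript per cell cannot be told apart. Without L1236, 15 genes fell and 5 rose, beside 21% and 18.2% of all genes. With the 5 lines taken as the replicates, 0 synthetases and 0 genes in all passed limma's adjusted threshold, and 11 synthetases and 2373 genes had an unadjusted p under 0.05.

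The medians of the classes lay close together on average. Of the 18 cytosolic genes 11 fell and 1 rose, with a median difference of -0.12, and of the 16 mitochondrial genes 9 fell and 3 rose, with a median of -0.13. Of all genes 21.2% fell and 17.4% rose, and the 3 mitochondrial rises lay near the latter share. KARS1 fell and GARS1, at -0.060, did not pass. Of the 7 complex members measured (EPRS1, IARS1, KARS1, LARS1, MARS1, QARS1 and RARS1), 5 fell and 0 rose, beside those shares of all genes. Without L1236 the class medians were -0.048 and -0.074. Called on average and lower in the mean of all 5 lines were 12 genes, 6 cytosolic, KARS1 and 5 mitochondrial, beside 8.19% of all genes, and 0 synthetases were called and higher in all 5, beside 6.09%.

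**Figure D1:**
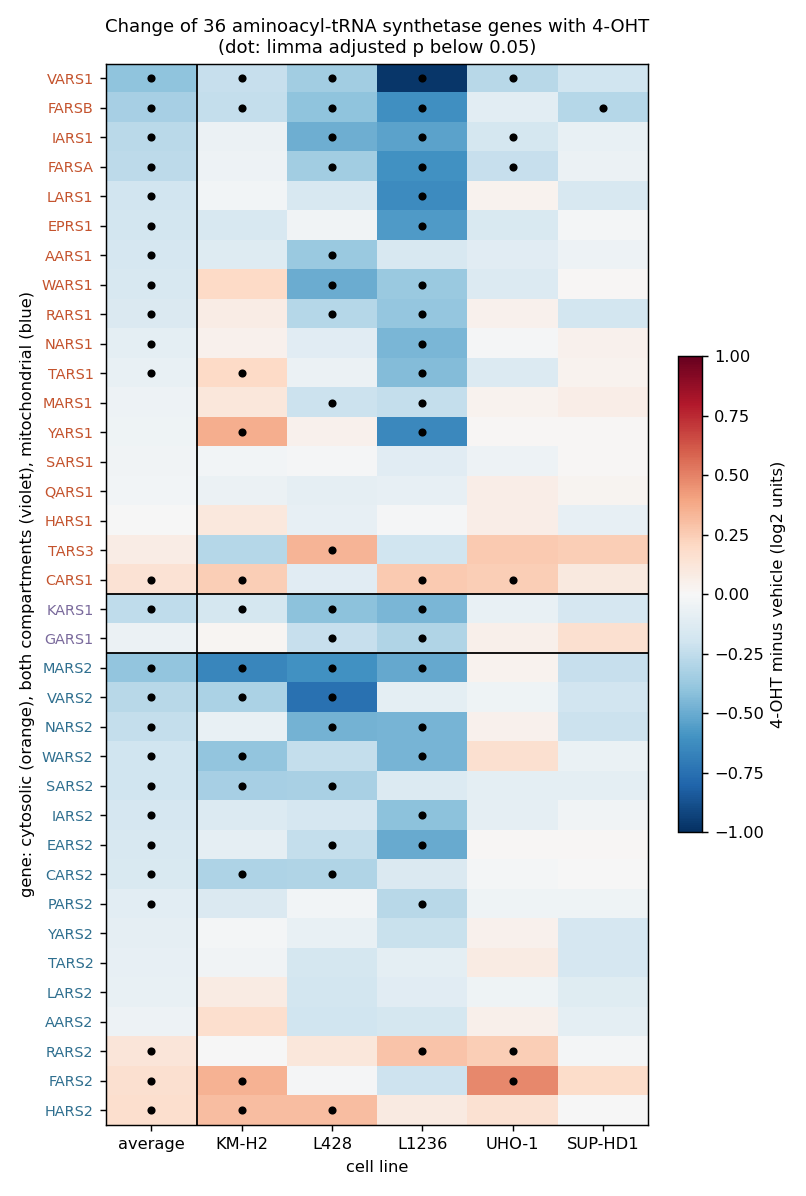
Rows are the 36 synthetase genes by class and columns the average and the 5 lines; colour is 4-OHT minus vehicle in log2 units and a dot marks a limma adjusted p below 0.05. Of the 36 genes, 16 fell in L428 and 20 in L1236, against 8 in KM-H2, 3 in UHO-1 and 1 in SUP-HD1. In the same order 17.5%, 14.9%, 12.3%, 11.1% and 2.35% of all genes fell.

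The lines differed. In L1236 20 synthetases fell and 2 rose, where 14.9% of all genes fell and 8.25% rose. In L428 16 fell and 2 rose, where 17.5% and 12% of all genes did. KM-H2 had 8 that fell and 5 that rose, beside 12.3% and 10% of all genes, a share nearer to the background. UHO-1 had 3 of each, beside 11.1% and 13.4%, and in SUP-HD1 1 fell and 0 rose, beside 2.35% and 3.68%. At an unadjusted p under 0.05 SUP-HD1 had 9 synthetases lower and 2 higher, beside 16.6% of all genes in either direction. The split in UHO-1 moved with the scaling, as did that of all genes. With each array centred on its median 0 synthetases fell and 3 rose, beside 5.85% and 15.6% of all genes, and with quantile normalisation over all arrays 7 fell and 1 rose, beside 13.4% and 11.6%. In KM-H2 median centring gave 7 that fell and 2 that rose, beside 11.8% and 7.89%.

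Array by array, both 4-OHT arrays lay below both vehicle arrays for 30 of 36 synthetases in L1236 and 27 in L428, where 28.6% and 32.4% of all genes did so. This held for 15 genes in KM-H2 (30% of all genes), 15 in SUP-HD1 (25.4%) and 6 in UHO-1 (39.5%). Both 4-OHT arrays lay above both vehicle arrays for 12 synthetases in KM-H2 (28% of all genes), 8 in UHO-1 (31.1%), 6 in SUP-HD1 (19.1%) and 2 each in L428 (27.7%) and L1236 (20.9%). A limma F test of the difference between lines called 25 of the 36 synthetases, 15 cytosolic, 8 mitochondrial and both genes of the shared class, beside 42.7% of all genes. Among genes that reached a signal of 8 it called 25 of 34 synthetases, beside 63.6% of all such genes. Median signals were 10.4 for the cytosolic and 8.26 for the mitochondrial genes. Since bright genes were called more often, counts of calls by class are not on equal terms.

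The class medians lay farthest apart in L1236. There the median difference was -0.41 over the cytosolic genes, 12 of which fell and 1 rose, and -0.19 over the mitochondrial genes, 6 of which fell and 1 rose. Of all genes in L1236, 14.9% fell and 8.25% rose. Over the 4 ways to set a single 4-OHT array against a single vehicle array of L1236, the cytosolic median ran from -0.51 to -0.30 and the mitochondrial one from -0.27 to -0.095. In L428 the medians were -0.14 and -0.19, with 8 and 6 genes that fell and 1 of each that rose. Of all genes in L428, 17.5% fell and 12% rose. In KM-H2 the medians were -0.025 and -0.082, with 2 cytosolic genes that fell and 3 that rose against 5 and 2 mitochondrial ones. These are 11.1% and 16.7% of the cytosolic and 31.2% and 12.5% of the mitochondrial genes, beside 12.3% and 10% of all genes. Without the second KM-H2 4-OHT array the cytosolic median turned to 0.058. No test was run between the classes.

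**Figure D2:**
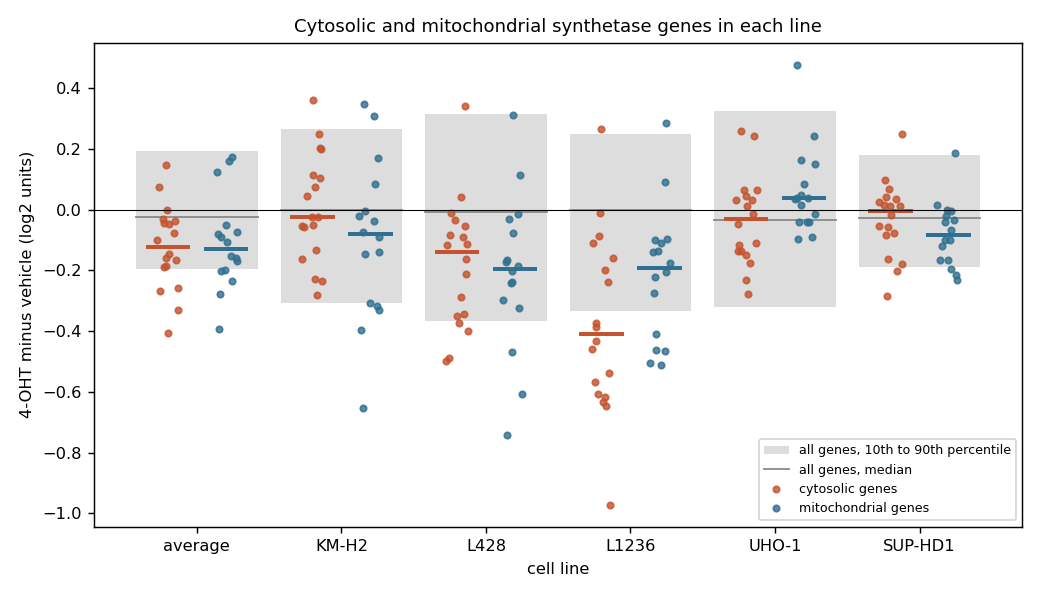
Each point is 1 synthetase gene, its 4-OHT minus vehicle difference in log2 units, by class, for the average and each line; coloured bars are class medians and the grey band holds the 10th to 90th percentile of all genes tested. In L1236 the cytosolic median of -0.41 lies below the mitochondrial one of -0.19, while in UHO-1 the medians are -0.031 and 0.037.

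VARS1, the cytosolic valyl-tRNA synthetase, had the largest average fall of the 36 genes. Vehicle VARS1 arrays read 9.47 and 9.53 in KM-H2 against 9.26 and 9.27 with 4-OHT, and the values in L428 were 10.09 and 10.18 against 9.88 and 9.70. VARS1 likewise read 9.66 and 9.72 against 8.77 and 8.67 in L1236, 10.29 and 10.12 against 9.97 and 9.88 in UHO-1 and 9.37 and 9.40 against 9.22 and 9.15 in SUP-HD1. In all 5 lines both 4-OHT arrays lay below both vehicle arrays, and the gap was widest in L1236. The average difference was -0.40 ± 0.032 (SE, n = 10 arrays per arm) with a limma adjusted p of 5.74e-10, and -0.26 without L1236. By line VARS1 fell in 4: by 0.23 in KM-H2, 0.34 in L428, 0.97 in L1236 and 0.28 in UHO-1 on the log2 scale, with an SE of 0.071 in each. In SUP-HD1 the difference was -0.20 with an adjusted p of 0.105. The fall in L1236, 1.96-fold, was the largest called for a synthetase in any line, and the F test between lines gave an adjusted p of 5.83e-06. Its second probe set held identical values.

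FARSA and FARSB code for the alpha and beta subunits of cytosolic phenylalanyl-tRNA synthetase. Vehicle FARSB arrays read 10.35 and 10.36 in KM-H2 against 10.17 and 10.07 with 4-OHT, and the values in L428 were 10.47 and 10.35 against 10.05 and 9.96. FARSB likewise read 11.11 and 11.19 against 10.61 and 10.45 in L1236, 11.07 and 10.92 against 10.92 and 10.85 in UHO-1 and 11.18 and 10.95 against 10.76 and 10.80 in SUP-HD1. The arms of FARSB did not overlap in KM-H2, L428, L1236 and SUP-HD1, and overlapped in UHO-1. FARSB fell by 0.33 ± 0.033 on average (limma adjusted p = 2.72e-08) and was the only synthetase called in SUP-HD1, where it fell by 0.28 (adjusted p = 0.0201). That call was lost without the first SUP-HD1 vehicle array (adjusted p = 0.294), without the first or the second 4-OHT array (0.169 and 0.0924), with median centring (0.109) and without the intensity trend (0.0982).

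Vehicle FARSA arrays read 10.97 and 10.92 in KM-H2 against 10.86 and 10.93 with 4-OHT, and the values in L428 were 10.70 and 10.75 against 10.41 and 10.34. FARSA likewise read 11.42 and 11.42 against 10.87 and 10.76 in L1236, 10.86 and 10.80 against 10.63 and 10.56 in UHO-1 and 10.93 and 10.94 against 10.92 and 10.84 in SUP-HD1. FARSA was lower without overlap in L428, L1236 and UHO-1 and, by a narrow margin, in SUP-HD1, and its arms overlapped in KM-H2. It fell by 0.26 ± 0.024 on average (limma adjusted p = 8.16e-09), by 0.61 in L1236, 0.35 in L428 and 0.23 in UHO-1. In KM-H2 and SUP-HD1 the differences were -0.050 and -0.056, where FARSB differed by -0.24 and -0.28. Lines differed in both subunits, with F test adjusted p-values of 1.04e-05 for FARSA and 0.00409 for FARSB.

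IARS1, the isoleucyl enzyme of the multi-synthetase complex, changed in 3 lines. Vehicle IARS1 arrays read 11.37 and 11.48 in KM-H2 against 11.37 and 11.36 with 4-OHT, and the values in L428 were 10.84 and 10.79 against 10.33 and 10.33. IARS1 likewise read 11.07 and 11.14 against 10.61 and 10.53 in L1236, 10.98 and 11.02 against 10.83 and 10.82 in UHO-1 and 11.34 and 11.29 against 11.25 and 11.23 in SUP-HD1. In L428, L1236, UHO-1 and SUP-HD1 the arms did not overlap, while in KM-H2 the 4-OHT arrays lay at the level of the lower vehicle array. IARS1 fell by 0.27 ± 0.022 on average (limma adjusted p = 1.91e-09), by 0.54 in L1236, 0.49 in L428 and 0.18 in UHO-1. Its difference was -0.055 in KM-H2 and -0.076 in SUP-HD1, and the F test between lines gave 4.75e-06.

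EPRS1 codes for the fused glutamyl- and prolyl-tRNA synthetase of the complex. Vehicle EPRS1 arrays read 10.81 and 10.82 in KM-H2 against 10.72 and 10.59 with 4-OHT, and the values in L428 were 10.71 and 10.73 against 10.73 and 10.64. EPRS1 likewise read 9.70 and 9.83 against 9.33 and 9.07 in L1236, 9.84 and 9.82 against 9.73 and 9.62 in UHO-1 and 11.50 and 11.40 against 11.43 and 11.43 in SUP-HD1. Most of its change lay in L1236, where both 4-OHT arrays were below both vehicle arrays by a wide margin. In L428 and SUP-HD1 the arms overlapped. EPRS1 fell by 0.19 ± 0.032 on average (limma adjusted p = 6.03e-05) and by 0.57 in L1236. Without L1236 the average was -0.091 with an adjusted p of 0.0155.

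KARS1, the lysyl enzyme of both compartments and a member of the complex, fell by 0.26 ± 0.024 on average (limma adjusted p = 1.09e-08). Vehicle KARS1 arrays read 10.49 and 10.42 in KM-H2 against 10.28 and 10.27 with 4-OHT, and the values in L428 were 10.35 and 10.42 against 9.98 and 9.96. KARS1 likewise read 10.65 and 10.66 against 10.24 and 10.15 in L1236, 10.35 and 10.27 against 10.21 and 10.27 in UHO-1 and 10.38 and 10.39 against 10.22 and 10.22 in SUP-HD1. Its arms did not overlap in any line, though in UHO-1 they all but met. KARS1 fell by 0.18 in KM-H2, 0.41 in L428 and 0.45 in L1236, and differed by -0.071 in UHO-1 and -0.16 in SUP-HD1. GARS1, the glycyl enzyme of both compartments, fell by 0.23 in L428 and 0.30 in L1236, but its differences were 0.021, 0.051 and 0.16 in KM-H2, UHO-1 and SUP-HD1.

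Among the other complex members LARS1, the leucyl enzyme, fell by 0.19 on average and by 0.63 in L1236, and its average without L1236 was -0.079 with a limma adjusted p of 0.0626. RARS1 (arginyl) fell by 0.15 on average, by 0.29 in L428 and 0.39 in L1236. MARS1 (methionyl) fell in L428 and L1236 but differed by -0.047 on average (adjusted p = 0.118), and QARS1 (glutaminyl) passed in no line, at -0.029 on average.

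YARS1, the tyrosyl enzyme, had the smallest F test p of the synthetases. Vehicle YARS1 arrays read 9.27 and 9.19 in KM-H2 against 9.61 and 9.57 with 4-OHT, and the values in L428 were 10.09 and 10.00 against 10.12 and 10.06. YARS1 likewise read 9.5 and 9.58 against 8.92 and 8.87 in L1236, 9.74 and 9.66 against 9.69 and 9.72 in UHO-1 and 9.80 and 9.70 against 9.77 and 9.75 in SUP-HD1. The arms stood apart in opposite directions in KM-H2 and L1236, with 4-OHT above vehicle in KM-H2 and below it in L1236, and overlapped in the other 3 lines. YARS1 rose by 0.36 ± 0.062 in KM-H2 (limma adjusted p = 0.000103) and fell by 0.64 in L1236 (4.16e-08), and the F test between lines gave 9.66e-08. Its average was -0.043 (adjusted p = 0.244), which turned to 0.11 (0.00746) without L1236. TARS1, the threonyl enzyme, likewise rose in KM-H2 by 0.20 (limma adjusted p = 0.0131) and fell in L1236 by 0.43, with an F test adjusted p of 2.88e-05. Unlike that of YARS1, the TARS1 call in KM-H2 was lost with median centring and without either vehicle array or the first 4-OHT array. The tryptophanyl enzyme WARS1, known as an interferon-induced gene, fell by 0.50 in L428 and 0.37 in L1236 and differed by 0.20 in KM-H2 (adjusted p = 0.0777). Its average of -0.16 became -0.075 without L428 (adjusted p = 0.189).

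Of the cytosolic genes outside the complex, AARS1 (alanyl) fell by 0.17, most in L428 at 0.37, and NARS1 (asparaginyl) by 0.10, with a fall of 0.46 in L1236. SARS1 (seryl) and HARS1 (histidyl) passed in no line, with average differences of -0.036 and -0.0013.

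CARS1, the cysteinyl enzyme, was the only cytosolic gene that rose on average. Its values were singled out after they were seen. Vehicle CARS1 arrays read 8.98 and 8.89 in KM-H2 against 9.18 and 9.19 with 4-OHT, and the values in L428 were 9.53 and 9.56 against 9.45 and 9.41. CARS1 likewise read 7.10 and 7.13 against 7.43 and 7.33 in L1236, 8.75 and 8.47 against 8.89 and 8.82 in UHO-1 and 9.0 and 8.87 against 9.05 and 9.01 in SUP-HD1. Both 4-OHT arrays lay above both vehicle arrays in every line but L428, where they lay below. CARS1 rose by 0.15 ± 0.036 on average (limma adjusted p = 0.00219), by 0.25 in KM-H2, 0.26 in L1236 and 0.24 in UHO-1, and differed by -0.12 in L428. Its F test adjusted p was 0.0357. The calls in single lines had adjusted p-values of 0.0199 to 0.033. That in KM-H2 was lost without any 1 of its 4 arrays (0.0511 to 0.212), that in L1236 without either vehicle array or the first 4-OHT array (0.0578 to 0.138), and that in UHO-1 without the second vehicle array or either 4-OHT array (0.0814 to 0.445).

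TARS3, a threonyl-tRNA synthetase gene close in sequence to TARS1, was the largest rise called in L428. Vehicle TARS3 arrays read 7.19 and 7.11 in KM-H2 against 6.89 and 6.84 with 4-OHT, and the values in L428 were 6.62 and 6.74 against 7.01 and 7.03. TARS3 likewise read 6.48 and 6.44 against 6.36 and 6.16 in L1236, 8.08 and 7.92 against 8.29 and 8.23 in UHO-1 and 6.82 and 6.52 against 6.99 and 6.85 in SUP-HD1. In L428, UHO-1 and SUP-HD1 4-OHT lay above vehicle without overlap, and in KM-H2 and L1236 below. TARS3 rose by 0.34 ± 0.11 in L428 (limma adjusted p = 0.0184), and no other line passed. Its average was 0.073 (adjusted p = 0.254).

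**Figure D3:**
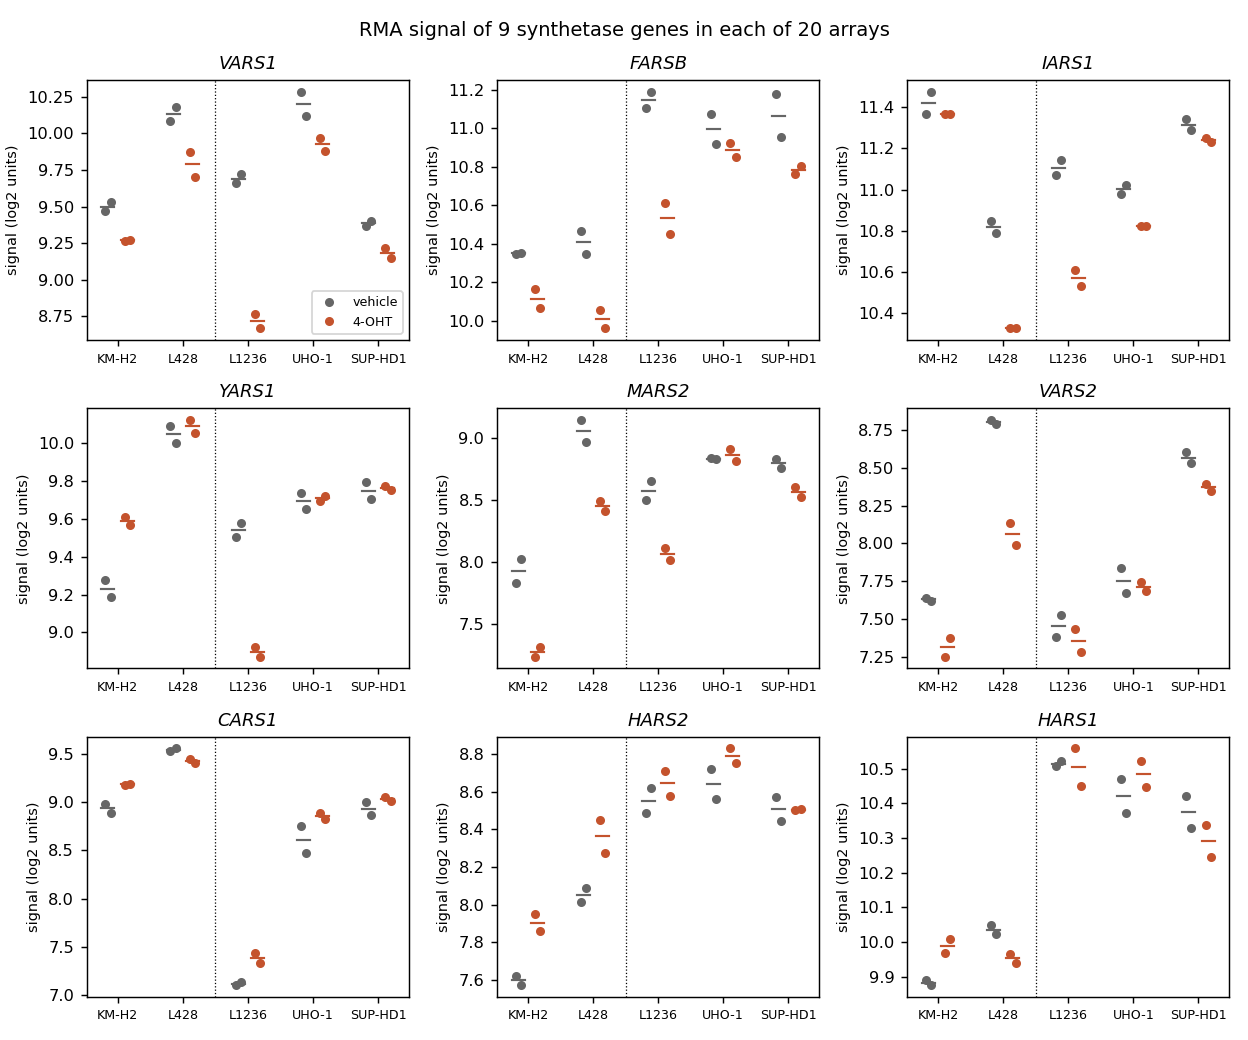
Log2 signal of 9 synthetase genes in each of the 20 arrays by line, vehicle in grey and 4-OHT in orange, with a short bar at each mean of 2 arrays; the dotted line parts arrays that were normalised separately. VARS1 is lower with 4-OHT in all 5 lines, while YARS1 is higher in KM-H2 and lower in L1236.

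MARS2, the mitochondrial methionyl-tRNA synthetase, had the largest average fall of the mitochondrial genes. Vehicle MARS2 arrays read 7.83 and 8.02 in KM-H2 against 7.24 and 7.31 with 4-OHT, and the values in L428 were 9.14 and 8.96 against 8.49 and 8.41. MARS2 likewise read 8.50 and 8.65 against 8.11 and 8.01 in L1236, 8.83 and 8.83 against 8.91 and 8.82 in UHO-1 and 8.83 and 8.75 against 8.60 and 8.53 in SUP-HD1. The arms stood apart in every line except UHO-1, where they overlapped. MARS2 fell by 0.39 ± 0.038 on average (limma adjusted p = 1.77e-08), by 0.65 in KM-H2, 0.61 in L428 and 0.51 in L1236. In UHO-1 the difference was 0.035 and in SUP-HD1 -0.23 (adjusted p = 0.133), and the F test gave 0.000247. Its fall in KM-H2 was the largest called there.

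VARS2, the mitochondrial valyl enzyme, fell most in L428. Vehicle VARS2 arrays read 7.64 and 7.62 in KM-H2 against 7.25 and 7.37 with 4-OHT, and the values in L428 were 8.82 and 8.79 against 8.13 and 7.99. VARS2 likewise read 7.38 and 7.53 against 7.43 and 7.28 in L1236, 7.84 and 7.67 against 7.74 and 7.68 in UHO-1 and 8.60 and 8.53 against 8.40 and 8.35 in SUP-HD1. 4-OHT lay below vehicle without overlap in KM-H2, L428 and SUP-HD1, and the arms overlapped in L1236 and UHO-1. VARS2 fell by 0.28 ± 0.040 on average (limma adjusted p = 5.26e-06), by 0.74 in L428 and 0.32 in KM-H2. Over L1236, UHO-1 and SUP-HD1 alone VARS2 averaged -0.11 and did not pass (adjusted p = 0.172). Its second probe set gave -0.28 on average as well.

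SARS2, the mitochondrial seryl enzyme, fell by 0.20 ± 0.040 on average (limma adjusted p = 0.000317). Vehicle SARS2 arrays read 7.89 and 7.91 in KM-H2 against 7.59 and 7.55 with 4-OHT, and the values in L428 were 7.55 and 7.56 against 7.16 and 7.30. SARS2 likewise read 8.79 and 8.86 against 8.76 and 8.61 in L1236, 8.19 and 7.96 against 7.94 and 8.02 in UHO-1 and 8.05 and 8.05 against 8.01 and 7.89 in SUP-HD1. The arms overlapped in UHO-1, stood well apart in KM-H2 and L428 and parted narrowly in L1236 and SUP-HD1. SARS2 fell by 0.33 in KM-H2 and 0.32 in L428, and its differences in the other lines were -0.14 to -0.096. Over L1236, UHO-1 and SUP-HD1 alone it averaged -0.11 and did not pass (limma adjusted p = 0.162). An F test adjusted p of 0.242 did not call a difference between lines.

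Another 6 mitochondrial genes fell on average. NARS2 (asparaginyl) fell by 0.24, WARS2 (tryptophanyl) by 0.20, IARS2 (isoleucyl) by 0.17, EARS2 (glutamyl) by 0.16, CARS2 (cysteinyl) by 0.15 and PARS2 (prolyl) by 0.11. YARS2, TARS2, LARS2 and AARS2 did not pass on average or in any line, with average differences of -0.089 to -0.052.

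FARS2, RARS2 and HARS2, the mitochondrial phenylalanyl, arginyl and histidyl enzymes, were the mitochondrial genes that rose on average. Vehicle FARS2 arrays read 7.83 and 7.83 in KM-H2 against 8.20 and 8.15 with 4-OHT, and the values in L428 were 7.60 and 7.78 against 7.76 and 7.59. FARS2 likewise read 8.10 and 8.26 against 8.13 and 7.82 in L1236, 9.41 and 9.15 against 9.85 and 9.66 in UHO-1 and 10.66 and 10.55 against 10.79 and 10.79 in SUP-HD1. In KM-H2, UHO-1 and SUP-HD1 4-OHT lay above vehicle, and in L428 and L1236 the arms overlapped. FARS2 rose by 0.16 ± 0.046 on average (limma adjusted p = 0.00831), by 0.48 in UHO-1 and 0.35 in KM-H2. Its average lost the call without KM-H2 (adjusted p = 0.125) or without UHO-1 (0.242).

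Vehicle RARS2 arrays read 7.55 and 7.47 in KM-H2 against 7.55 and 7.47 with 4-OHT, and the values in L428 were 8.28 and 8.13 against 8.37 and 8.26. RARS2 likewise read 8.19 and 8.40 against 8.60 and 8.56 in L1236, 8.70 and 8.57 against 8.88 and 8.88 in UHO-1 and 8.49 and 8.41 against 8.41 and 8.45 in SUP-HD1. The RARS2 arms stood apart with 4-OHT higher in L1236 and UHO-1 and overlapped in the other 3 lines. RARS2 rose by 0.12 ± 0.038 on average (limma adjusted p = 0.0117), by 0.28 in L1236, the largest rise called there, and by 0.24 in UHO-1. Without L1236 or without UHO-1 the average did not pass (adjusted p = 0.102 and 0.109).

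HARS2 and HARS1 are neighbours that are read in opposite directions from a shared promoter region, and were singled out after their values were seen. RefSeq puts 84 bases between their starts, at chr5:140691371-140691454 on GRCh38.p14, with a GC content of 59.5%, shown because the pair share it and only HARS2 was called on average:
HARS1-HARS2, plus strand: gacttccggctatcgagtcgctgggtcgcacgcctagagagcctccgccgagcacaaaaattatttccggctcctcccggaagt
Vehicle HARS2 arrays read 7.62 and 7.57 in KM-H2 against 7.95 and 7.86 with 4-OHT, and the values in L428 were 8.01 and 8.09 against 8.45 and 8.27. HARS2 likewise read 8.49 and 8.62 against 8.71 and 8.58 in L1236, 8.72 and 8.56 against 8.83 and 8.75 in UHO-1 and 8.57 and 8.44 against 8.50 and 8.51 in SUP-HD1. HARS2 was higher without overlap in KM-H2, L428 and UHO-1. It rose by 0.17 ± 0.038 on average (limma adjusted p = 0.000872) and by 0.31 in both KM-H2 and L428. Over L1236, UHO-1 and SUP-HD1 alone HARS2 averaged 0.080 and did not pass (limma adjusted p = 0.275). HARS1 averaged -0.0013 ± 0.026 (adjusted p = 0.977), with 0.11 in KM-H2 and -0.082 in L428, neither of which passed. The difference between HARS1 and HARS2 was not tested.

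Several calls in single lines were lost when 1 array was left out. Leaving out an array of a line leaves 1 in that arm and widens the SE, so a lost call need not mean an outlying array. Over all alternatives the difference moved little for some, such as FARS2 in KM-H2 (0.32 to 0.38). It moved more for others, such as RARS2 in L1236 (0.18 to 0.39). In KM-H2 those of VARS1, FARSB, KARS1, VARS2, SARS2, WARS2, FARS2 and HARS2 were each lost without at least 1 of the 4 KM-H2 arrays, with limma adjusted p-values of 0.0513 to 0.193, while those of YARS1 and MARS2 held without any 1 of them. In L428 TARS3 lost its call without the first vehicle array or either 4-OHT array, HARS2 without the first array of either arm and SARS2 without the first 4-OHT array (0.067 to 0.141). In L1236 RARS2 lost its call without the first vehicle array or either 4-OHT array, and WARS2 without the second 4-OHT array (0.0549 to 0.204). In UHO-1 VARS1, IARS1, FARSA, FARS2 and RARS2 each lost theirs without at least 1 of the 4 UHO-1 arrays (0.0538 to 0.274), and RARS2 also without the second SUP-HD1 4-OHT array (0.0501).

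Each cytosolic gene was set beside the mitochondrial gene for the same amino acid in 17 pairs, in which EPRS1 and FARS2 occur 2 times. The cytosolic gene had the lower difference in 10 pairs on average, in 11 in L1236, 14 in UHO-1, 8 in L428, 8 in SUP-HD1 and 7 in KM-H2, with a median gap of -0.13 in L1236 and 0.083 in KM-H2. Valine shows the turn between lines, with -0.97 for VARS1 and -0.098 for VARS2 in L1236 but -0.34 and -0.74 in L428. For methionine the order was the reverse, with -0.047 for MARS1 and -0.39 for MARS2 on average, and for phenylalanine FARSB fell and FARS2 rose. For cysteine CARS1 rose, by 0.15, and CARS2 fell, by 0.15. The difference within a pair was not tested.

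**Figure D4:**
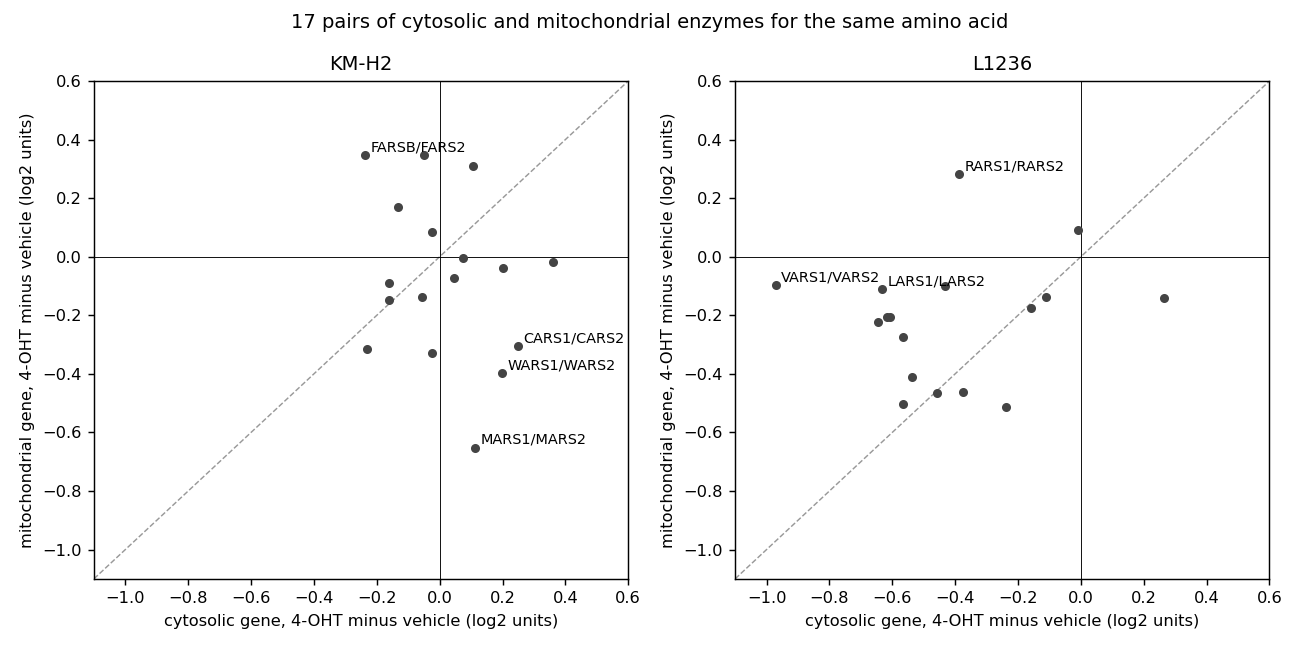
Each point is 1 of 17 pairs, with the 4-OHT minus vehicle difference of the cytosolic gene on the x axis and of the mitochondrial gene on the y axis, in log2 units, for KM-H2 and L1236; the dashed line marks equal differences and pairs at least 0.5 apart are named. In L1236 11 pairs lie to the left of the line, VARS1/VARS2 farthest at -0.97 and -0.098, and in KM-H2 7 do.

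RefSeq promoter windows, from 250 bases before to 50 after a gene's start on GRCh38.p14, were found for 30 of the 36 genes and not for VARS1, LARS1, YARS1, TARS3, VARS2 and AARS2. They were searched on both strands for 3 motifs. CACGTG is the E-box, which MYC among other factors reads, TGATGNAA is the core of the amino acid response element, which ATF4 reads, and GTAAACA is a FOXO motif. GTAAACA can share letters with TGATGNAA, but in CARS1 the matches lie at different starts. TGATGNAA occurred in 8 genes, namely AARS1, CARS1, IARS1, MARS1, NARS1, TARS1, GARS1 and YARS2, beside 4.46% of 27305 genes with a window. CACGTG occurred in 4, IARS1, CARS2, EARS2 and MARS2, beside 8.77%, and GTAAACA in CARS1 alone, beside 4.19%. The windows of 30 bases below are shown for IARS1 and MARS2, which fell, and for CARS1, which rose. Each runs along the gene's strand with the motif or its complement in capitals:
IARS1 E-box, chr9:92293866-92293895, minus strand: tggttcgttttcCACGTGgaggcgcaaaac
IARS1 amino acid response element, chr9:92293692-92293721, minus strand: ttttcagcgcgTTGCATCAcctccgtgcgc
MARS2 E-box, chr2:197705346-197705375, plus strand: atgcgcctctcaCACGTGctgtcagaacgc
CARS1 amino acid response element, chr11:3057407-3057436, minus strand: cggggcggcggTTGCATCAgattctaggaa
CARS1 FOXO motif, chr11:3041075-3041104, minus strand: ctctgttgaatTGTTTACactaaacacaaa
A match is a description of letters, and binding was not measured. MYC itself fell in all 5 lines, with differences of -1.37 in L1236, -2.44 in KM-H2, -0.43 in SUP-HD1, -0.61 in L428 and -0.21 in UHO-1. Both 4-OHT arrays of MYC lay below both vehicle arrays in 4 of the 5 lines, and the limma adjusted p in UHO-1 was 0.0468. The part of MYC in the synthetase values was not tested.

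Of 31 genes of the amino acid response measured, 16 fell on average, beside 21.2% of all genes, and 6 rose, a share near the 17.4% of all genes. Their median was -0.13. SLC7A5, the large neutral amino acid transporter, fell by 0.34 ± 0.024 (limma adjusted p = 9.47e-11) and DDIT4, an inhibitor of mTORC1 signalling, by 0.35 ± 0.040. SLC38A2, a sodium-coupled transporter of small neutral amino acids, rose by 0.38 ± 0.032 (adjusted p = 2.02e-09) and by 1.15 in L428. ATF4 itself rose by 0.096 on average, and in SUP-HD1 0 of the 31 fell and 2 rose, beside 2.35% and 3.68% of all genes.

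Of 10 partners of the synthetases measured, 4 fell and 1 rose on average, beside 21.2% and 17.4% of all genes, with a median of -0.079. TUFM, which brings charged tRNA to the mitochondrial ribosome, fell by 0.22, though it differed by 0.069 in KM-H2. QRSL1, a subunit of the mitochondrial glutamyl-tRNA amidotransferase, fell by 0.20 on average and was called in L1236 alone, at -0.49. SEPSECS, which makes selenocysteine on its tRNA, rose by 0.15 on average. It was called in L428 alone, at 0.58, and differed by -0.12 in KM-H2. Of 9 mitochondrial translation factors, beside the same shares of all genes, 4 fell, TSFM, the exchange factor of TUFM, most, by 0.26, and 1 rose, the release factor family member MTRF1L, by 0.15. The median of these 9 was -0.057, against -0.13 for the mitochondrial synthetases and -0.025 for all genes.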

How the data were processed

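The members, the gene lists and the tests were chosen with earlier results of these data known. The authors deposited log2 expression values made by RMA, per the labels and the submitters' processing notes. RMA corrects background, normalises arrays and summarises probes. Sorted values of any pair of arrays differed by at most 0.253 within the set of L428 and KM-H2, by at most 0.204 within that of the other 3 lines and by at least 0.712 between the sets. The genome build of the array is not given in the sources used here. Of 33268 probe sets, 19457 had 1 symbol, 1751 had several and 12060 were not listed. Entrez identifiers of 19426 matched RefSeq GRCh38.p14, which changed 0 symbols. Of several probe sets of a gene (767 genes), the one with the highest mean was used. A gene was tested if its log2 value reached 5 in at least 2 arrays, which left 15850. Groups came from the array titles.

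A model of 10 group means was fitted to all 20 arrays with limma 3.58.1 in R 4.3.3 (lmFit, eBayes with intensity trend, 10 residual and 11.8 prior degrees of freedom). Contrasts were 4-OHT minus vehicle per line, their mean over 5 lines and an F test between lines, with Benjamini-Hochberg adjustment over all genes and a threshold of 0.05. Tests were tried on simulated data first. The number of arrays limits the precision. Values in every array are given for the 8 members with the largest absolute average difference among those called on average and moved one way in all 5 lines, the 4 with the smallest F test p, and the largest call in each line and direction. Of each other list the 3 genes with the largest absolute average difference among those called are named. Alternatives were the filter, the trend, the scaling, the probe set rule, a replicate block, and leaving out arrays or lines.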

Additional observations from a re-analysis of the deposited data

Results flagged for a closer look

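The difference between 4-OHT and vehicle varied between the 5 lines for 25 of the 36 synthetases by limma's F test, adjusted over all genes tested. YARS1 (9.66e-08) rose in KM-H2 and fell in L1236, and TARS1 (2.88e-05) did likewise, though the TARS1 rise lost its call with median centring. IARS1 (4.75e-06), VARS1 (5.83e-06), FARSA (1.04e-05), LARS1 (6.98e-05), NARS1 (3.97e-05), EPRS1 (0.000748) and FARSB (0.00409) had their largest fall in L1236. WARS1 (0.000134) and VARS2 (0.000635) had theirs in L428, as did AARS1 (0.0262), and MARS2 (0.000247) had its in KM-H2. MARS1 (0.000561), GARS1 (0.000645), KARS1 (0.000678), RARS1 (0.00497), NARS2 (0.00671) and EARS2 (0.00206) fell in both L428 and L1236. TARS3 (0.00305) passed in L428 alone, and FARS2 (0.00356) in KM-H2 and UHO-1. WARS2 (0.0109) fell in KM-H2 and L1236, IARS2 (0.0248) in L1236, and CARS2 (0.0367) in KM-H2 and L428, while CARS1 (0.0357) rose in KM-H2, L1236 and UHO-1. No group held enough arrays for a test of single outlying values. Whether the T cell markers in the arrays labelled L1236 bear on these differences was not tested, and 18 of the 36 synthetases were called by the F test over the 4 lines without L1236, beside 36.4% of all genes.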

How the results depend on the processing

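A replicate block left the counts at 21 lower and 4 higher on average, 8 and 6 in KM-H2, 15 and 2 in L428, 21 and 2 in L1236, 3 and 2 in UHO-1 and 1 and 0 in SUP-HD1, with 24 by the F test. Same-numbered arrays deviated together with correlations of -0.557 in L1236, -0.0822 in KM-H2, 0.0372 in L428, 0.282 in SUP-HD1 and 0.294 in UHO-1, so the numbers were not taken to pair the samples. With the L1236 numbers crossed, an alternative chosen after seeing the data, 23 fell and 4 rose on average and 2 fell in SUP-HD1. In SUP-HD1, 2 fell with a floor of 8, 0 without a trend, 0 with median centring, and 4 fell and 1 rose with quantile normalisation. In KM-H2, 5 fell without a trend. Median centring gave 2 higher in KM-H2, 1 in L428, 0 in L1236 and 0 lower in UHO-1, where the cytosolic median turned to 0.031. Quantile normalisation gave 7 lower and 1 higher in UHO-1 and turned its mitochondrial median to -0.044, and cyclic loess gave 6 lower and 4 higher there. Without L1236 the average medians were -0.048 (cytosolic) and -0.074 (mitochondrial), and YARS1 turned to 0.11. Without UHO-1, 2 rose on average. KM-H2 and L428 alone gave 0.20 for YARS1 and 16 by the F test, beside 23.2% of all genes, and the other 3 lines alone 2 higher and a cytosolic median of -0.17. Of the named genes, EPRS1, LARS1, CARS1 and RARS2 lost their average call with KM-H2 and L428 alone (limma adjusted p of 0.0699 to 0.53). With the other 3 lines alone VARS2, SARS2, WARS2, FARS2 and HARS2 lost theirs (0.0775 to 0.275). With the 5 lines as replicates 0 fell and 0 rose by limma (11 at unadjusted p under 0.05). With only its own 4 arrays, 0 rose in L1236. Leaving out each array in turn gave 20 to 23 lower and 4 higher on average, with medians of -0.14 to -0.11 (cytosolic) and -0.14 to -0.12 (mitochondrial), and 22 to 25 by the F test. By line, lower and higher ranged from 3 to 9 and 1 to 6 in KM-H2, 12 to 16 and 0 to 2 in L428, 18 to 21 and 0 to 2 in L1236, 2 to 3 and 0 to 3 in UHO-1, and 0 to 1 for both in SUP-HD1. The KM-H2 cytosolic median ran from -0.029 to 0.058, the latter without its second 4-OHT array. Of the values of named genes under alternatives, 2146 kept their side of the threshold, and 109 lost and 5 gained the call in the same direction. Another 2 changed sign with a call. The 2146 include values that changed sign without a call in either fit, such as the HARS1 average, at 0.019 without L428.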
